A study of Mus musculus with 4 samples.

Results

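The nuclei described here are the parvalbumin interneurons of the mouse hippocampus, taken as the nuclei whose own RNA counts met a gate. A nucleus entered when it held at least 500 genes and under 5% mitochondrial UMIs (unique molecular identifiers, each 1 counted transcript), at least 3 UMIs of Gad1 and Gad2 together, and at least 2 UMIs of Pvalb. Its Pvalb UMIs also had to be no fewer than those of Sst and more than those of Vip and of Lamp5, and fewer than 2 of the glial genes Mobp, Mog, Prr5l, Gja1, Fgfr3 and Inpp5d could be detected. This gate found 50 nuclei among 3101 inhibitory nuclei (the same filters, at least 3 Gad1 and Gad2 UMIs) and 55295 filtered nuclei of all kinds. Because measured UMIs chose the nuclei, the levels of the gate genes are given as a description and not as a result.

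The libraries came from 2 wild-type (WT) mice and 2 mice heterozygous for a knock-in of the R87C substitution in Cyfip2 (Cyfip2+/R87C, KI), at postnatal week 28. The knock-in is a constitutive allele carried by every cell, modelled on a variant of an infantile epilepsy, and the mice are described as being on a C57BL/6N background. The hippocampi of both hemispheres of a mouse were frozen, nuclei were isolated, and the 3' ends of their transcripts were counted in droplets, 1 library per mouse. The treatment label of KI replicate 2 spells the allele R88C, while its protocol and genotype give R87C and KI. With 2 mice per genotype, p-values rest on the spread between 2 libraries in each group.

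Parvalbumin interneurons are GABA-releasing neurons derived from the medial ganglionic eminence. They express the calcium-binding protein parvalbumin and fire brief action potentials at high rates with the help of Kv3 potassium channels. Most of their axons contact the soma, proximal dendrites or axon initial segment of pyramidal neurons, and many of these cells carry a perineuronal net. Cyfip2 encodes a subunit of the WAVE regulatory complex, which couples the GTPase Rac to actin assembly.

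The label was checked against markers that the gate did not use. Kcnmb2, the beta2 subunit of the BK potassium channel and the marker given for these cells, was detected in 47 of 50 nuclei (94%), against 91.4% of Sst-gated, 75.9% of other inhibitory, 7.28% of excitatory and 4.44% of oligodendrocyte nuclei. Lhx6, a transcription factor of the same lineage, was detected in 13 of 50 nuclei (26%) with 19 UMIs in all, against 33.1% of Sst-gated and 19.9% of other inhibitory nuclei. With each nucleus thinned to 2500 UMIs, the Lhx6 shares were 4%, 12.3% and 7.76%, so that the gated nuclei had the lowest share of the 3 inhibitory classes. Kcnc2, a Kv3 channel subunit, was found in 50 of 50 nuclei with a median of 23.5 UMIs, and in 95.6% of Sst-gated and 81.5% of other inhibitory nuclei. It was also found in 67.7% of excitatory and 22.1% of oligodendrocyte nuclei. Erbb4, the neuregulin receptor, was found in 49 of 50 nuclei with a median of 67 UMIs and up to 305, against 85.6% of Sst-gated and 89.2% of other inhibitory nuclei. Its shares were 26% of excitatory and 75.9% of oligodendrocyte nuclei. These markers set the gated nuclei apart from excitatory nuclei more than from the other inhibitory classes. Kcnc2 was nevertheless common in excitatory nuclei, and Erbb4 in oligodendrocyte nuclei.

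**Figure D1:**
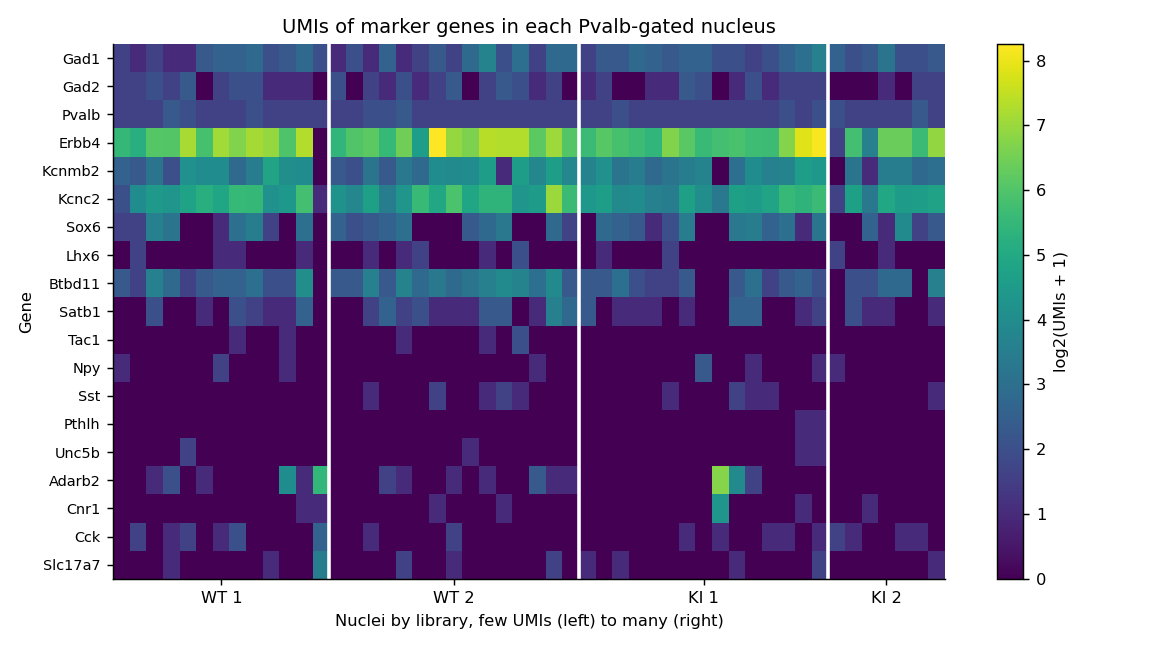
UMIs of marker genes (rows, on a log2(UMIs + 1) colour scale) in each of the 50 Pvalb-gated nuclei (columns), sorted within a library by total UMIs. Kcnmb2 has at least 1 UMI in 47 columns, and the 3 columns with none lie in WT replicate 1, KI replicate 1 and KI replicate 2.

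The remaining 3 nuclei had no Kcnmb2 UMI, and 2 of them went against the label in other markers as well. The first, in WT replicate 1, held 42525 UMIs, 25.5% of all gated UMIs of that library, with 0 UMIs of Erbb4, 43 of Adarb2 and 10 of the excitatory marker Slc17a7. The second, in KI replicate 1, held 108 UMIs of Adarb2, a gene of interneurons from the caudal ganglionic eminence, and 19 of Cnr1, the cannabinoid receptor of Cck basket cells. The last, in KI replicate 2, was the smallest gated nucleus at 2560 UMIs, with 2 UMIs of Erbb4, 2 of Lhx6 and 0 of Adarb2, Cnr1 and Slc17a7. In the other 47 nuclei Erbb4 had at least 11 UMIs, Kcnc2 at least 3, and Adarb2 at most 15, with 0 Adarb2 UMIs in 33. Results are therefore also given without these 3 nuclei, which leaves 12, 15, 14 and 6 nuclei in WT replicates 1 and 2 and KI replicates 1 and 2.

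Most members stood at the edge of the gate. Of the 50 nuclei, 39 had exactly 2 Pvalb UMIs, 8 had 3 and 3 had 4. Just outside were 125 inhibitory nuclei with 1 Pvalb UMI that met every other condition. Summed over nuclei, Erbb4 stood at 8158 CPM (counts per 1000000 UMIs of the sum) in nuclei with exactly 2 Pvalb UMIs and at 8164 CPM in those with 1. The same comparison gave 1038 and 989 CPM for Kcnmb2, 2604 and 2666 CPM for Kcnc2, 336 and 447 CPM for Sox6, and 463 and 245 CPM for Adarb2. Nuclei that should lack Pvalb also held UMIs of it, the level to be set against free RNA: 28 of 3641 excitatory nuclei (0.769%, median 8228 UMIs) and 30 of 4523 oligodendrocyte nuclei (0.663%, median 2125 UMIs) held at least 1, against 6.71% of inhibitory nuclei (median 6956 UMIs). Only 1 excitatory nucleus held 2 or more Pvalb UMIs.

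The gated nuclei were unevenly spread over the libraries. WT replicates 1 and 2 held 13 of 826 and 15 of 620 inhibitory nuclei, or 1.57% (exact 95% binomial interval 0.841 to 2.68) and 2.42% (1.36 to 3.96). KI replicates 1 and 2 held 15 of 742 and 7 of 913, or 2.02% (1.14 to 3.31) and 0.767% (0.309 to 1.57). The groups overlapped, with KI replicate 1 between the WT libraries and KI replicate 2 below them. The mean share of the WT libraries was 2.00% ± 0.598 (SD, n = 2), that of the KI libraries 1.39% ± 0.887 (SD, n = 2), and an exact two-sided permutation test of the log2 share gave p = 0.667, where 2 against 2 libraries cannot go below 0.333. Without KI replicate 2 the log2 ratio (KI over WT) moved from -0.65 to 0.05. With 1 Pvalb UMI admitted, the shares were 5.33% and 7.58% in WT and 5.66% and 4.6% in KI, with a log2 ratio of -0.32. The share depends on Pvalb level and depth, since the gate counts Pvalb itself, and intervals cover counting error only.

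**Figure D2:**
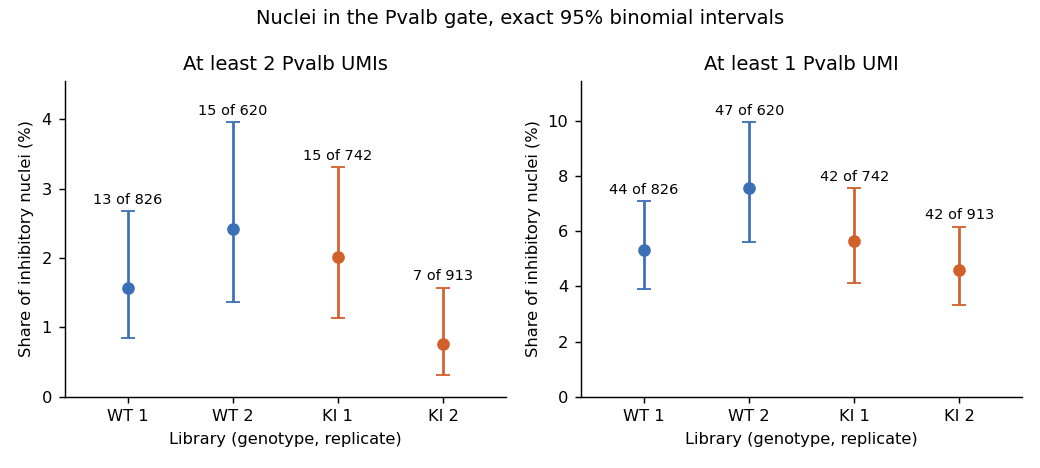
Share of inhibitory nuclei (percent) in the Pvalb gate in each library, with exact 95% binomial intervals and the numbers of nuclei, for at least 2 Pvalb UMIs (left) and at least 1 (right). KI replicate 2 is lowest in both panels, and KI replicate 1 lies between the WT libraries in both.

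Depth limited what could be measured. Summed over gated nuclei, WT replicates 1 and 2 held 167065 and 152731 UMIs, KI replicate 1 held 161696 and KI replicate 2 only 46717, where 1 UMI equals 21.4 CPM against 5.99 to 6.55 CPM in the other libraries. The median gated nucleus held 9598 UMIs. Library totals ranged from 73009975 to 80913580 UMIs over 12665 to 16055 barcodes, pairs of libraries shared 40 to 67 barcodes of which 0 were gated in both, and all libraries had the same batch label, so no comparison between batches was possible. Summed counts of the libraries of a genotype differed beyond sampling noise, with a chi-square per degree of freedom of 2.54 in WT and 2.14 in KI, so no library was counted as a duplicate.

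Of the genes tied to fast spiking and fast release, Syt2, Kcnc1, Btbd11 and Ppargc1a were detected more often in gated nuclei than in the other inhibitory classes, and these 4 were picked with their values known. The gene lists did not all stand higher. The sodium and potassium channel list summed to 15004 to 17652 CPM in gated nuclei and 15508 to 15855 CPM in all other inhibitory nuclei, and the list of GABA synthesis, uptake and release to 10749 to 11366 CPM against 12004 to 12784 CPM, lower in all 4 libraries. The list of the PGC-1alpha program and energy supply summed to 3173 to 3849 CPM in gated nuclei and 2227 to 2472 CPM in the others. These levels compare the same gene between classes; the nuclei were chosen by their counts, so no test is given. Syt2, the synaptotagmin of fast inhibitory terminals, was detected in 58% of gated nuclei, 3.33% of Sst-gated nuclei and 10% of other inhibitory nuclei. After each nucleus was thinned to 2500 UMIs (0 of 50, 1 of 360 and 50 of 2691 nuclei were shallower and left out), the shares were 26%, 0.557% and 3.86%. Kcnc1, the Kv3.1 channel, was detected in 98%, 50.6% and 59.8% of the 3 classes, and in 62%, 21.7% and 31.7% after thinning. Btbd11, a BTB-domain gene found in the great majority of members, was detected in 90%, 39.4% and 54.6%, and after thinning in 72%, 18.4% and 33.7%. Ppargc1a, the mitochondrial coactivator PGC-1alpha, was detected in 88%, 61.1% and 46.5%, and after thinning in 50%, 28.7% and 24.8%. The gated class had the highest share of the 3 before and after thinning for these 4 genes.

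Other genes were sparser in gated nuclei than in their neighbours. Reln, the extracellular matrix protein reelin, was detected in 16% of gated, 61.9% of Sst-gated and 41.3% of other inhibitory nuclei, and after thinning in 4%, 47.9% and 30.9%. Cnr1 was detected in 14%, 33.1% and 42.5%, and after thinning in 6%, 14.2% and 25.8%. Sox6, a transcription factor of the medial ganglionic eminence lineage, separated the gated nuclei (72%) from other inhibitory nuclei (33.4%) but stood at 68.3% in Sst-gated nuclei. Tac1, the tachykinin gene of part of the basket cells, was found in 5 nuclei with 7 UMIs, and 0 of these nuclei were in a KI library. Pthlh and Unc5b, markers of axo-axonic cells, were detected in 4% and 8% of gated nuclei, which is too few to divide the class into subtypes.

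**Figure D3:**
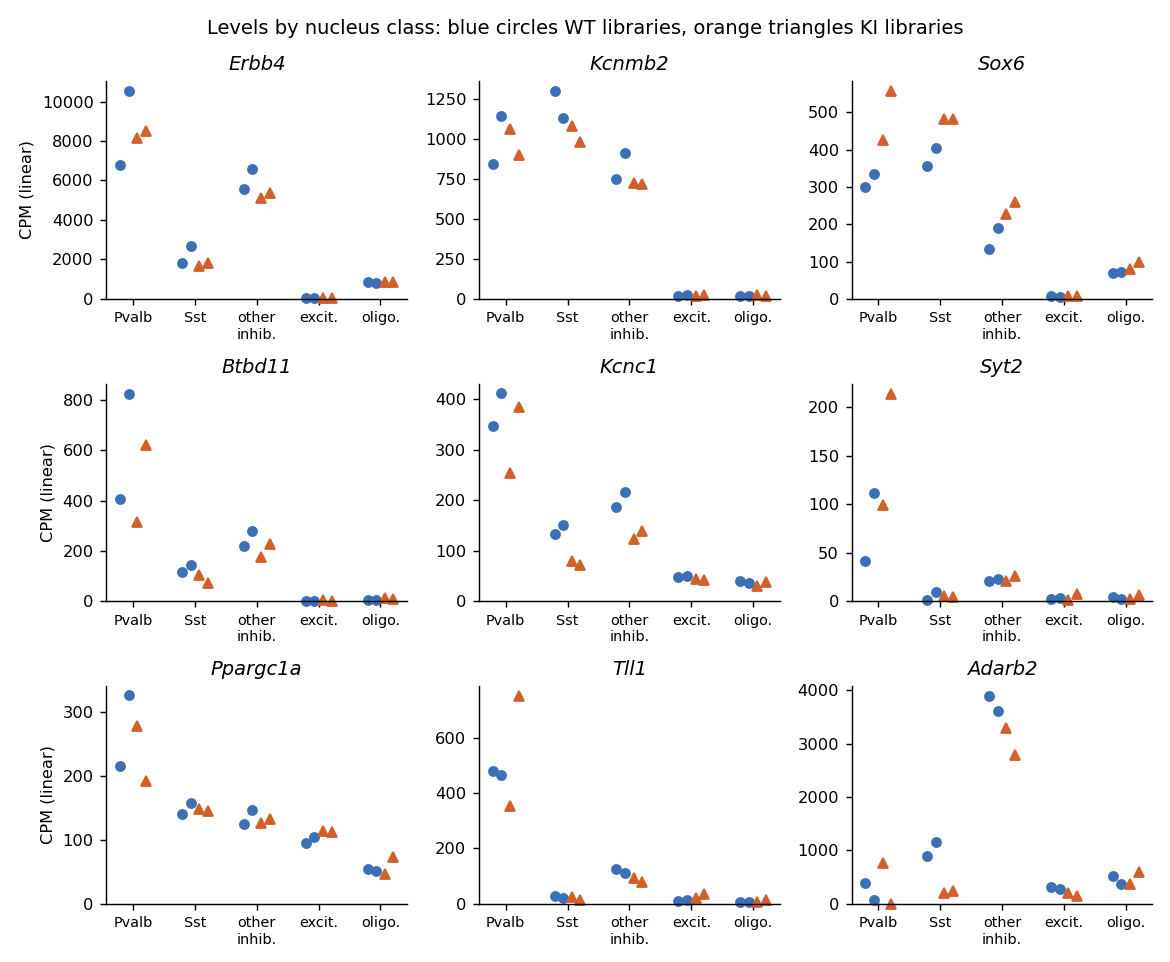
Level of 9 genes (CPM, linear axes from 0) in Pvalb-gated, Sst-gated, other inhibitory, excitatory and oligodendrocyte nuclei, 1 point per library. Syt2 and Tll1 are highest in the Pvalb-gated nuclei of each library, while Kcnmb2 and Sox6 overlap between Pvalb-gated and Sst-gated nuclei, and Adarb2 is high in KI replicate 1 and WT replicate 1 of the gated class and at 0 in KI replicate 2.

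Outside the gate genes, the 15 genes with the largest ratio of the level in gated nuclei to that in all other inhibitory nuclei (at least 50 CPM in gated nuclei, each library weighing the same) included Syt2, at 41.9 and 111 CPM in the WT sums and 99 and 214 CPM in the KI sums, 5.74 times its level of 20.3 CPM in the others. From pooled UMIs its ratio was 4.65, and without KI replicate 2, which holds 10 of its 50 UMIs, it was 4.34. Tll1, a secreted metalloprotease of the tolloid family, stood at 479 and 465 CPM in the WT sums and 353 and 749 CPM in the KI sums, 5.57 times the level of 91.8 CPM elsewhere. Its 243 UMIs were found in 32 nuclei, and its ratio was 5.12 from pooled UMIs and 4.36 without KI replicate 2, so the order of Syt2 and Tll1 depends on the weighting. Mypn, which encodes an actin-associated sarcomere protein, reached 5.41 times (12 CPM elsewhere) from 32 UMIs in 22 nuclei. Nek7, a mitotic kinase family member, was broader, with 113 UMIs in 40 nuclei and a ratio of 3.68, and Cemip, a hyaluronan-degrading protein, had 164 UMIs in 40 nuclei and a ratio of 3.61. The ratios of Ahr, the aryl hydrocarbon receptor, and Gfra1, the receptor of the growth factor GDNF, were 3.99 and 3.32. The other genes were Mrpl58, 5830432E09Rik, Gm28501, Nacc2, Sntb1, Nxph2, Tmem44 and Agbl1, with ratios of 3.30 to 4.45. Several of these rest on little RNA: Mrpl58 had 17 UMIs and a ratio of 1.64 without KI replicate 2, and the 43 UMIs of Sntb1 came from 7 nuclei. Gm28501 is annotated antisense within Nek7 and 5830432E09Rik is also an antisense gene. Whether counting kept their reads apart from those of the opposite strand is not given in the sources used here.

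The first question between genotypes was the mutated gene. Cyfip2 (ENSMUSG00000020340; chromosome 11, 46193850 to 46312859, minus strand) stood at 209 and 164 CPM in the gated nuclei of WT replicates 1 and 2 and at 129.9 and 235 CPM in those of KI replicates 1 and 2. The KI libraries lay on either side of the WT libraries, and the log2 fold change (KI over WT) was -0.11 (SE 0.42; adjusted p = 0.993 by the quasi-likelihood test of edgeR, Benjamini-Hochberg adjusted). In nuclei with 1 Pvalb UMI, it stood at 203 and 243 CPM (WT) and 147 and 214 CPM (KI). The alleles cannot be told apart in counts per gene.

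In gated nuclei, no gene passed the test between KI and WT after adjustment. Of 3138 genes tested on sums per library, 0 (0%) passed an adjusted p of 0.05 (quasi-likelihood test of edgeR), and the smallest adjusted p was 0.581. At an unadjusted p below 0.05, 71 genes (2.26%) were higher and 101 (3.22%) lower in KI, and DESeq2 gave 0 genes after adjustment and 32 before. Leaving out WT replicate 1, WT replicate 2, KI replicate 1 or KI replicate 2 gave 6, 42, 3 and 31 passing genes, in fits where the lone library of a group is assumed to vary like the other group. With plain library totals rather than TMM factors 0 genes passed, and the median log2 fold change over all genes moved from -0.03 to -0.14. Without the 3 nuclei that lacked Kcnmb2, 0 of 2484 genes passed by the same edgeR test, with 175 at an unadjusted p below 0.05 and a smallest adjusted p of 0.302. The genes below are those of smallest p in each direction whose KI and WT libraries did not overlap, and none of them passed after adjustment in this fit. Their lack of overlap was required by this choice. A full separation of 2 against 2 libraries has an exact two-sided permutation p of 0.333, so it is only a description here and below.

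Dcc (ENSMUSG00000060534), the receptor of the axon guidance cue netrin-1, stood at 323 and 268 CPM in the WT sums and 24.7 and 107 CPM in the KI sums. Its log2 fold change was -2.55 (SE 0.56; unadjusted p = 0.000485, adjusted p = 0.581 by edgeR). Its 104 UMIs came from 23 nuclei, and without the 3 nuclei that lacked Kcnmb2 the levels were 297 and 268 CPM in the WT sums and 26.5 and 113 CPM in the KI sums, a log2 fold change of -2.45. With KI replicate 1 left out, the log2 fold change shrank to -1.43 (adjusted p = 0.98 by edgeR), and with WT replicate 1 left out it was -2.39 (0.0554). Dcc passed without KI replicate 2 (-3.39, adjusted p = 0.000866 by edgeR) or WT replicate 2 (-2.66, 0.0041).

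Dlx1as (ENSMUSG00000084946; chromosome 2, 71516454 to 71537891, minus strand), an RNA antisense to the interneuron gene Dlx1, stood at 95.8 and 124 CPM in the WT sums and at 12.4 and 0 CPM in the KI sums. The lowest value is 0 of 46717 UMIs, which allows up to 64.2 CPM, and the 2 UMIs of KI replicate 1 are also below the floor of 3. Whether counting used the strand, and so kept reads of Dlx1as apart from those of Dlx1, is not given in the sources used here. Its unadjusted p was 0.00118 and its adjusted p 0.581 by edgeR. Without KI replicate 1 the fitted log2 fold change was -6.76, against the library with 0 UMIs alone. Side by side, it stood at 178 and 179 CPM in the WT sums and 56.4 and 60.8 CPM in the KI sums in the other inhibitory nuclei, where the change passed (log2 fold change -1.51, adjusted p = 0.0034 by edgeR).

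Of the remaining lower genes, Khdrbs2, a splicing regulator, stood at 168 and 236 CPM in the WT sums and 43.3 and 64.2 CPM in the KI sums (log2 fold change -1.94). Hs3st4, a heparan sulfate sulfotransferase, stood at 114 and 216 CPM (WT) and 18.6 and 42.8 CPM (KI) (log2 fold change -2.61). Cdh8 (ENSMUSG00000036510; chromosome 8, 99024471 to 99416471, minus strand), a classical cadherin, stood at 419 and 236 CPM (WT) and 43.3 and 128 CPM (KI) (log2 fold change -2.18). A single nucleus gave 52 of the 119 UMIs of Cdh8, and without the 3 nuclei that lacked Kcnmb2 the WT levels were 145 and 236 CPM and the KI levels 33.1 and 136 CPM, with a log2 fold change of -1.61 and an unadjusted p of 0.0126 by edgeR. Its log2 fold change was -1.31 without KI replicate 1 and -1.69 without WT replicate 1 (adjusted p = 0.98 and 0.755 by edgeR), and it passed without WT replicate 2 (-2.50, adjusted p = 0.0041 by edgeR) or KI replicate 2 (-2.75, 0.00504). Hs3st4 passed without WT replicate 1 (-2.97, 0.0365) or KI replicate 2 (-2.95, 0.0204), but not without WT replicate 2 (-2.04, 0.387) or KI replicate 1 (-1.89, 0.898), by the same test. Khdrbs2, Hs3st4 and Cdh8 were detected in 83.3%, 79.5% and 85.6% of excitatory nuclei against 40%, 32% and 46% of gated nuclei. Dcc was likewise detected in 85.9% of excitatory and 46% of gated nuclei. The summed excitatory markers of the gated nuclei also stood lower in KI (439 and 428 CPM) than in WT (1215 and 485 CPM). The 1215 CPM are those of WT replicate 1, which holds the nucleus of 42525 UMIs with 10 Slc17a7 UMIs. With nuclei of 2 or more Slc17a7 UMIs removed the log2 fold changes were -2.51 (Dcc), -2.04 (Khdrbs2), -2.56 (Hs3st4) and -1.03 (Cdh8).

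Of the genes with higher values in KI, Gm32647 and Elmo1 were found in the fewest nuclei, 10 and 18, against 25 to 29 for the other 3. Gm32647, annotated as a long non-coding RNA, stood at 23.9 and 6.55 CPM in the WT sums and 173 and 85.6 CPM in the KI sums, from 37 UMIs. Elmo1, an adaptor that works with Dock proteins to activate Rac, stood at 12 and 52.4 CPM (WT) and 216 and 128 CPM (KI), and 22 of its 51 UMIs came from 1 nucleus. Elmo1 was detected in 36% of gated, 48.1% of Sst-gated, 59% of other inhibitory and 90.8% of oligodendrocyte nuclei. The part of free RNA in its level was not tested. Without the 3 nuclei that lacked Kcnmb2 its log2 fold change went from 2.61 to 1.54. Without WT replicate 2 the log2 fold change of Elmo1 was 3.97 (adjusted p = 0.0018 by edgeR), and it also passed without KI replicate 2 (2.90, 0.000716), but not without WT replicate 1 (1.91, 0.71) or KI replicate 1 (2.01, 0.98). Gm32647 passed without WT replicate 1 (4.35, 0.0222), WT replicate 2 (2.68, 0.0468) or KI replicate 2 (3.56, 0.000866), by the same test, and was not tested without KI replicate 1. Laptm4b, a lysosomal membrane protein, stood at 47.9 and 39.3 CPM (WT) and 142 and 149.8 CPM (KI), and Reps1, an endocytosis adaptor, at 41.9 and 58.9 CPM (WT) and 167 and 128 CPM (KI). Ptgds (ENSMUSG00000015090; chromosome 2, 25466709 to 25470046, minus strand), the prostaglandin D2 synthase and a lipid carrier, stood at 89.8 and 45.8 CPM (WT) and 179 and 214 CPM (KI). Adjusted p-values for these 5 genes lay between 0.581 and 0.746 by edgeR.

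**Figure D4:**
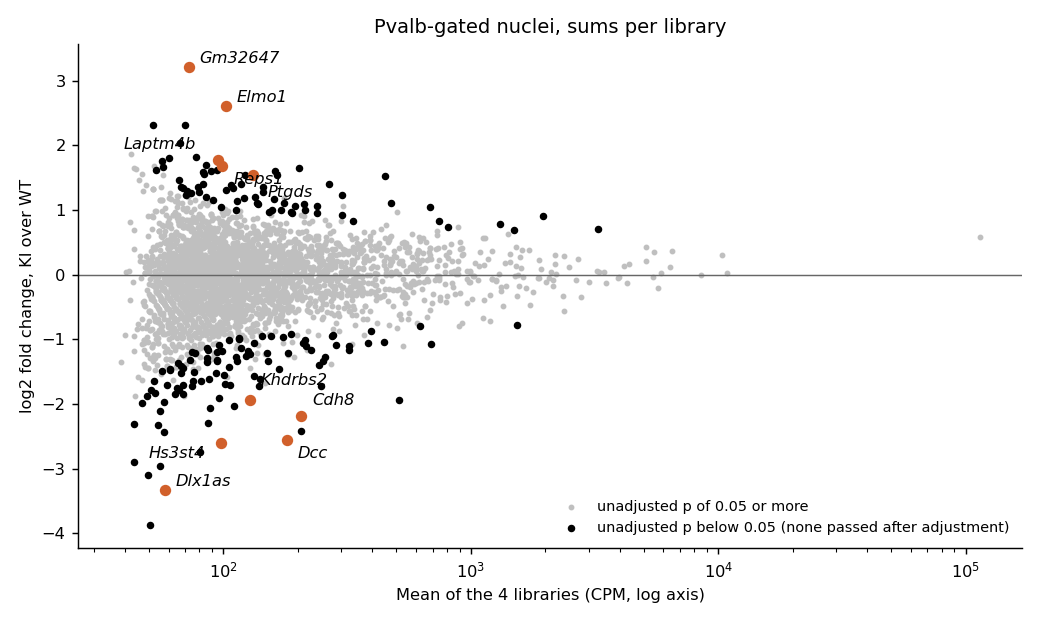
Log2 fold change (KI over WT) against the mean level of the 4 libraries (CPM, log axis) for the 3138 genes tested in Pvalb-gated nuclei; black points had an unadjusted p below 0.05, and orange points are the 5 named genes in each direction. There are 172 black points, and 0 genes passed after adjustment.

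The 125 nuclei just outside the gate gave a deeper sum from the same mice, with 258218 to 327571 UMIs per library, and shared no nucleus with the gated class. They are part of the other inhibitory nuclei in every comparison, except where the gate admitted nuclei with 1 Pvalb UMI. There, 4 of 5039 genes (0.0794%) passed an adjusted p of 0.05 (quasi-likelihood test of edgeR), 1 higher and 3 lower in KI. Pde10a (ENSMUSG00000023868; chromosome 17, 8525372 to 8986648, plus strand), a phosphodiesterase that degrades cAMP and cGMP, stood at 918 and 879 CPM in the WT sums and 372 and 399.9 CPM in the KI sums (log2 fold change -1.14, SE 0.18, adjusted p = 0.00294 by edgeR). In the gated nuclei its levels were 676 and 936 CPM in the WT sums and 470.0 and 407 CPM in the KI sums, the groups did not overlap, and the log2 fold change was -0.79 (unadjusted p = 0.0423, adjusted p = 0.869 by edgeR).

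Dcc, which did not pass in gated nuclei, fell in the nuclei with 1 Pvalb UMI from 453 and 617 CPM in the WT sums to 201 and 250.3 CPM in the KI sums (log2 fold change -1.17, SE 0.23, adjusted p = 0.0344 by edgeR). Alkal2 (ENSMUSG00000054204; chromosome 12, 30884322 to 30893854, plus strand), a ligand of the receptor kinases ALK and LTK, fell from 102 and 84.1 CPM to 7.75 and 18.3 CPM (log2 fold change -2.66, adjusted p = 0.0138 by edgeR). Of Alkal2 the gated nuclei held only 7 UMIs in all, too few to be tested. Malat1, a long RNA kept in the nucleus, rose from 96445 and 97073 CPM to 131083 and 135522 CPM (log2 fold change 0.54, adjusted p = 1.37e-12 by edgeR). In gated nuclei Malat1 stood at 83369 and 104327 CPM in the WT sums and 162898 and 104801 CPM in the KI sums, with an adjusted p of 0.869 by edgeR. Malat1 moved with genotype in Sst-gated and other inhibitory nuclei too (log2 fold changes 0.77 and 0.63, adjusted p = 0.000436 and 0.0305 by edgeR), and the part of the nuclear RNA share in the other changes was not tested. DESeq2 called 1 of these 4 genes, Pde10a. The call for Dcc was lost without WT replicate 2 (adjusted p = 0.166 by edgeR) or KI replicate 1 (0.08), and a library left out gave 26 (without WT replicate 1), 28 (WT replicate 2), 13 (KI replicate 1) or 95 (KI replicate 2) passing genes in all. These nuclei and their genes were chosen after values were seen.

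In nuclei with 1 Pvalb UMI, Dlx1as had a log2 fold change of -0.98 and an adjusted p of 0.272, Ptgds 1.87 and 0.0621, Khdrbs2 -0.58 and 0.661, and Cdh8 -0.06 and 0.973, each by edgeR. Gm32647 stood at 94.3 and 495 CPM in the WT sums and 81.3 and 183 CPM in the KI sums there, with a log2 fold change of -1.07, the opposite sign to that in gated nuclei. Hs3st4 stood at 54.4 and 159 CPM in the WT sums and 321 and 27.5 CPM in the KI sums, so that its groups overlapped.

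Whether the genotype effect in gated nuclei differed from that in other interneurons was tested as an interaction of class and genotype, fitted with library as block. The spread between libraries beyond counting (edgeR's biological coefficient of variation) was 0.253 in gated, 0.117 in Sst-gated and 0.123 in other inhibitory sums. In the interaction fits it was 0.177 and 0.165 for both classes together, so the gated sums were given less spread there than alone. Set against Sst-gated nuclei, 1 of 7102 genes (0.0141%) had an adjusted p below 0.05, and against other inhibitory nuclei 1 of 13309 (0.00751%), by edgeR's quasi-likelihood test. For orientation, the KI effect itself passed for 70 of 8941 genes (0.783%) in the 360 Sst-gated nuclei and for 96 of 14710 (0.653%) in the 2691 other inhibitory nuclei, which hold far more RNA.

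Dcc was the gene that differed from Sst-gated nuclei. It stood at 1134 and 1004 CPM in the WT sums and 812 and 1698 CPM in the KI sums in Sst-gated nuclei, where the groups overlapped, and the KI effect in gated nuclei was lower by a log2 difference of -2.76 (SE 0.50; adjusted p = 0.0277 by edgeR). Without the 3 nuclei that lacked Kcnmb2 it passed again, together with Khdrbs2 and Luzp2. It did not pass with plain library totals rather than TMM factors (log2 difference -2.66, adjusted p = 0.0664), with nuclei of high doublet score removed (-2.79, 0.169), without WT replicate 1 (-2.74, 0.0753) or KI replicate 1 (-2.40, 0.605), or with at least 3 Pvalb UMIs in the gate (a fitted -9.09, 0.541), and with at least 1 Pvalb UMI it passed at -1.56. In the other inhibitory nuclei Dcc stood at 843 and 753 CPM in the WT sums and 560.3 and 665 CPM in the KI sums (log2 difference -2.35, adjusted p = 0.0589 by edgeR). Outside interneurons it stood at 1639.6 and 1675 CPM in the WT sums and 777 and 855 CPM in the KI sums in excitatory nuclei, and at 773 and 795 CPM and 397 and 549.5 CPM in oligodendrocyte nuclei.

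Cdh8 was the gene that differed from the other inhibitory nuclei. It stood there at 436 and 324 CPM in the WT sums and 352 and 374 CPM in the KI sums, a log2 difference of -2.29 (SE 0.49; adjusted p = 0.047 by edgeR). This call was lost without the 3 nuclei that lacked Kcnmb2 (log2 difference -1.76, adjusted p = 0.932), where Col25a1 was the 1 gene that passed. It was also lost without any of WT replicate 1 (log2 difference -2.08, adjusted p = 1), WT replicate 2 (-2.41, 0.0643) and KI replicate 1 (-1.61, 0.966), with nuclei of 2 or more Slc17a7 UMIs removed (-1.27, 1), with no filter on low counts (-2.24, 0.199), and with at least 3 (a fitted -11.11, 1) or at least 1 Pvalb UMI (-0.66, 0.703) in the gate, all by edgeR.

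**Figure D5:**
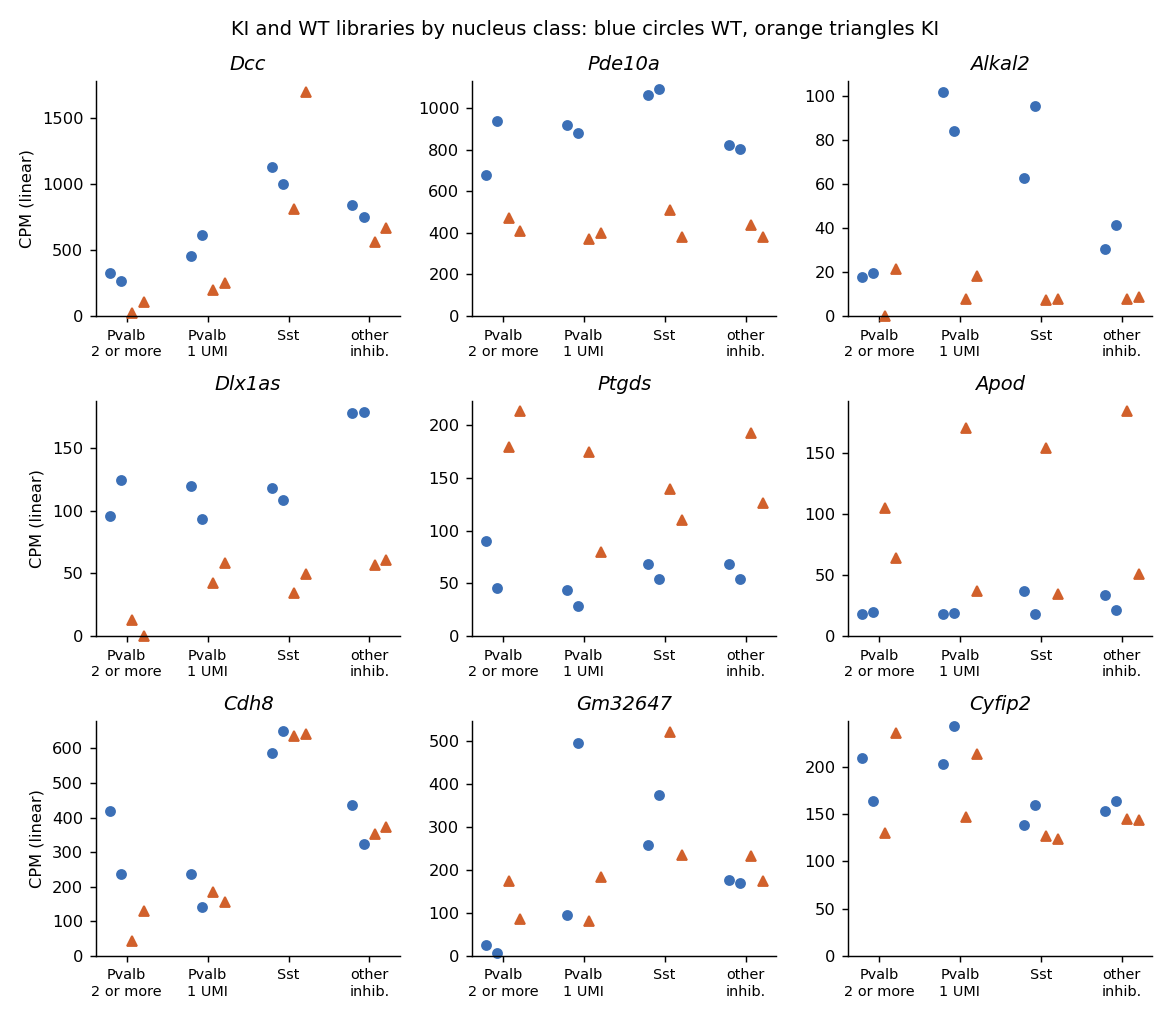
Level of 9 genes (CPM, linear axes from 0) in nuclei with 2 or more Pvalb UMIs, nuclei with 1, Sst-gated nuclei and other inhibitory nuclei, 1 point per library. The nuclei with 1 Pvalb UMI are also counted among the other inhibitory nuclei. Pde10a and Dlx1as are lower in both KI libraries than in both WT libraries in each class, Ptgds is higher, Dcc is lower in both Pvalb classes but overlaps in Sst-gated nuclei, and Cyfip2 overlaps in both Pvalb classes.

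Ordered by the roles of the genes, none of the 20 lists had a member that passed in gated nuclei. Among genes of the lineage (transcription factors and receptors), 13 of 20 had enough counts to be tested, and their median log2 fold change was 0.19, against -0.03 over all genes tested. Sox6 stood at 299 and 334 CPM in the WT sums and 427 and 557 CPM in the KI sums, with a log2 fold change of 0.66 and an adjusted p of 0.904 by edgeR. Erbb4 stood at 6776 and 10515 CPM (WT) and 8157 and 8498 CPM (KI) (adjusted p = 0.997 by edgeR), Satb1, a chromatin organiser, at 95.8 and 268 CPM (WT) and 129.9 and 128 CPM (KI), and Kcnmb2 at 844 and 1146 CPM (WT) and 1064 and 899 CPM (KI) (log2 fold change 0.06). In nuclei with 1 Pvalb UMI, Erbb4 stood at 8092 and 10486 CPM in the WT sums and 6436 and 7311 CPM in the KI sums (log2 fold change -0.36, unadjusted p = 0.000931, adjusted p = 0.142 by edgeR).

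Of 41 sodium and potassium channel genes, 27 were tested, with a median log2 fold change of -0.03 and 0 passing. Kcnc1 stood at 347 and 412 CPM in the WT sums and 254 and 385 CPM in the KI sums, and Kcnc2 at 1963 and 3575 CPM (WT) and 2177 and 2911 CPM (KI). Scn1a, the sodium channel Nav1.1 that these cells rely on for firing, stood at 383 and 498 CPM (WT) and 482 and 235 CPM (KI), and Kcna1, a Kv1 channel, at 126 and 144 CPM (WT) and 111 and 193 CPM (KI). In nuclei with 1 Pvalb UMI, Kcnc1 stood at 406 and 402 CPM in the WT sums and 189.8 and 256 CPM in the KI sums (log2 fold change -0.77, adjusted p = 0.214 by edgeR). There, Scn1a stood at 403 and 439 CPM (WT) and 596 and 589 CPM (KI) (log2 fold change 0.57, adjusted p = 0.271 by edgeR). List members named here and in what follows for an unadjusted p below 0.05 were chosen after their values were seen. In gated nuclei, Kcnab1, a Kv1 beta subunit, and Kcnq5, an M-current channel, had higher values in KI (log2 fold changes 0.74 and 1.54). Without the 3 nuclei that lacked Kcnmb2, Kcnq5 went to 0.82 (unadjusted p = 0.164 by edgeR).

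Calcium channel genes had 13 of 20 members tested and 0 passing, with a median log2 fold change of 0.09. Cacna2d2, the alpha2delta-2 subunit, stood at 102 and 151 CPM in the WT sums and 198 and 299.7 CPM in the KI sums (log2 fold change 0.96, unadjusted p = 0.0375, adjusted p = 0.869 by edgeR), with no overlap between groups. Cacna2d3, the alpha2delta-3 subunit, stood at 371 and 137 CPM in the WT sums and 1033 and 257 CPM in the KI sums (log2 fold change 1.53, unadjusted p = 0.0192, adjusted p = 0.836 by edgeR), and its groups overlapped. Cacna1e, the R-type channel, owed 41 of its 75 UMIs to 1 nucleus, and its log2 fold change went from -1.57 to -0.23 without the 3 nuclei that lacked Kcnmb2.

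For the GABA side of the synapse, 27 of 39 genes of GABA synthesis, uptake and release were tested and 17 of 22 genes of GABA receptors and their scaffold, with 0 passing and medians of -0.11 and -0.19. Slc32a1, the vesicular GABA transporter, had 29 UMIs and was not tested. The log2 fold change of Syt2 was 0.90 (SE 0.54; adjusted p = 0.914 by edgeR), and its groups overlapped. Gabrb1, a beta subunit of the GABA receptor, had a log2 fold change of -0.86 at an unadjusted p of 0.0334 by edgeR, and a single nucleus gave 53 of its 216 UMIs.

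Among 41 glutamate receptor genes, 26 were tested and 0 passed, with a median of -0.10. Gria4, the fast AMPA receptor subunit of these interneurons, stood at 2101 and 2219.6 CPM in the WT sums and 2158 and 1819 CPM in the KI sums, where the log2 fold change was -0.05 (SE 0.29). Grik2 and Grik3, kainate receptor subunits, had log2 fold changes of 0.69 and -1.61, with unadjusted p-values of 0.0394 and 0.0108 by edgeR and no overlap between groups. Grin2a, an NMDA receptor subunit, stood at 1215 and 687 CPM (WT) and 451 and 407 CPM (KI), but 104 of its 400 UMIs came from 1 nucleus, and its log2 fold change went from -1.07 to -0.65 without the 3 nuclei that lacked Kcnmb2. Of 33 neuromodulator receptor genes 8 were tested and 0 passed, with a median of -0.40. Oprd1, the delta opioid receptor, stood at 132 and 144 CPM in the WT sums and 18.6 and 128 CPM in the KI sums, with KI replicate 1 alone far below the rest (log2 fold change -1.43, unadjusted p = 0.0423 by edgeR). Insr, the insulin receptor, went the other way, at 65.8 and 72 CPM (WT) and 124 and 193 CPM (KI), with no overlap between groups (log2 fold change 1.14, unadjusted p = 0.0232, adjusted p = 0.856 by edgeR).

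Genes of the WAVE complex and Rac signalling had 13 of 24 members tested, 0 passing and a median of -0.16. Genes of the PGC-1alpha program and energy supply had 16 of 30 tested, 0 passing and a median of -0.27. Ppargc1a stood at 215 and 327 CPM in the WT sums and 278 and 193 CPM in the KI sums (log2 fold change -0.06), and Cox6a2, a cytochrome c oxidase subunit typical of these cells, had 2 UMIs in all. Of 38 genes of infantile epilepsy, 28 were tested and 0 passed, with a median of 0.08. The perineuronal net was beyond this depth: 3 of 23 genes could be tested, with Acan, the core aggrecan, at 5 UMIs in 5 nuclei and Hapln1, its link protein, at 4 UMIs in 4 nuclei. Of genes of subtypes and peptides 5 of 24 were tested (0 passing, median -0.39). Of 34 activity-induced genes only 1 was tested and it did not pass, with Bdnf at 6 UMIs and Nptx2 at 3, so neither the net nor recent activity could be compared between genotypes.

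Markers of other cell types were present in the gated sums. The 12 oligodendrocyte markers summed to 305, 151, 148 and 321 CPM in WT replicates 1 and 2 and KI replicates 1 and 2, against 5752 to 10883 CPM in oligodendrocyte nuclei. The 11 excitatory markers summed to 1215 CPM in WT replicate 1, which holds the nucleus of 42525 UMIs, and to 428 to 485 CPM in the other libraries, against 1430.4 to 1905 CPM in excitatory nuclei and 520 to 706 CPM in all other inhibitory nuclei. The 10 astrocyte markers summed to 236 to 754 CPM and the 8 microglia markers to 42.8 to 162 CPM, with 1 of the former and 2 of the latter at 0 in all libraries. The 6 markers of oligodendrocyte precursors summed to 126 and 144 CPM in the WT sums and 272 and 214 CPM in KI, where Lhfpl3 was the member with an unadjusted p below 0.05 and 2 of 6 were at 0. The 14 markers of other interneurons summed to 1012 and 1317 CPM in WT replicate 1 and KI replicate 1, which hold the nuclei rich in Adarb2, and to 347 and 299.7 CPM in WT replicate 2 and KI replicate 2.

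Of 5 lipid carrier genes 4 were tested in gated nuclei and 0 passed. Apod, apolipoprotein D, stood at 18 and 19.6 CPM in gated WT nuclei and 105 and 64.2 CPM in gated KI nuclei (log2 fold change 2.32, adjusted p = 0.782 by edgeR), with 26 UMIs in all. In nuclei with 1 Pvalb UMI it stood at 18.1 and 18.7 CPM (WT) and 170.4 and 36.6 CPM (KI) (adjusted p = 0.0695 by edgeR). Oligodendrocyte nuclei of the same libraries held 383 and 286 CPM of Apod in the WT sums and 2960.0 and 526 CPM in the KI sums. They held 676 and 664 CPM of Ptgds in the WT sums and 1950.0 and 1144 CPM in the KI sums. The part of free RNA in the levels of Apod and Ptgds in gated nuclei was not tested.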

How the data were processed

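Per the file headers, Cell Ranger 7.0.1 made the deposited matrices, which hold the authors' raw counts of UMIs per gene and nucleus for 32285 genes, aligned to mm10 per the labels. Use of intronic reads, strand setting and annotation version are not given in the sources used here. The study's methods filtered nuclei further and tested single nuclei; here 345 of 55640 barcodes were removed (under 500 genes, or 5% or more mitochondrial UMIs) and counts were summed per library and class, so that the mouse is the replicate. Members and gene lists were chosen with earlier results of these data known.

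Inhibitory nuclei had at least 3 UMIs of Gad1 and Gad2 and passed the glial exclusion. Sst-gated nuclei had at least 2 Sst UMIs, more than Pvalb, Vip and Lamp5, and the other inhibitory nuclei were in neither gate. Excitatory nuclei had at least 3 Slc17a7 UMIs and no Gad1 or Gad2 UMI, and oligodendrocyte nuclei at least 3 of Mobp and Mog and no Gad1 or Gad2 UMI. Doublets were not removed, and Scrublet (in scanpy 1.11.5, expected rate 0.08) scores above 0.25 were removed only as an alternative. Detection was also counted after thinning each nucleus to 2500 UMIs.

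Sums were filtered by filterByExpr, scaled by TMM factors and tested by edgeR 4.0.16 (glmQLFit and glmQLFTest, R 4.3.3) with Benjamini-Hochberg adjustment over all genes tested and a threshold of 0.05, and DESeq2 1.42.0 was an alternative. The scripts were tested on simulated data. Shares were compared by an exact permutation test, with exact Clopper-Pearson intervals of 95%. Intervals and the floor of 3 counts cover counting error only. Named genes were up to 5 per direction with the smallest p (none passed), at least 10 CPM on average and no overlap between genotypes, a fixed list of genes, genes passing a class-by-genotype test, and the 15 genes of largest level ratio. Some genes of these lists are not reported here. Gene positions came from the GENCODE M21 annotation of GRCm38, the assembly of mm10. The gates without Kcnmb2-negative nuclei, the tests of genes (not the share) with at least 1 Pvalb UMI and the test of nuclei with exactly 1 were added after seeing the data. Replicate numbers were not shown to pair the mice.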

Additional observations from a re-analysis of the deposited data

Results flagged for a closer look

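Dcc, the netrin-1 receptor, had a KI effect that differed between interneuron classes: the log2 difference between the effect in Pvalb-gated nuclei and that in Sst-gated nuclei was -2.76 (95% interval -3.78 to -1.74, adjusted p = 0.0277 by edgeR's quasi-likelihood test, 4 libraries). Both KI libraries lay below both WT libraries in Pvalb-gated nuclei, which was a condition of the rule that named Dcc between genotypes. In Sst-gated nuclei KI replicate 2 was the highest of the libraries and KI replicate 1 the lowest. The difference rests on 104 Dcc UMIs in 23 Pvalb-gated nuclei. The call was lost with library totals (log2 difference -2.66, adjusted p = 0.0664 by edgeR), with high doublet scores removed (-2.79, 0.169), without WT replicate 1 (-2.74, 0.0753) or KI replicate 1 (-2.40, 0.605), and at 3 or more Pvalb UMIs (a fitted -9.09, 0.541).

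Cdh8, a classical cadherin, had a KI effect that differed between Pvalb-gated and other inhibitory nuclei by a log2 difference of -2.29 (adjusted p = 0.0470 by edgeR's quasi-likelihood test). Both KI libraries lay below both WT libraries in Pvalb-gated nuclei, which was a condition of the rule that named Cdh8 between genotypes. A single nucleus of WT replicate 1 held 52 of the 119 Cdh8 UMIs. The call was lost without the Kcnmb2-negative nuclei (log2 difference -1.76, adjusted p = 0.932 by edgeR), with nuclei of 2 or more Slc17a7 UMIs removed (-1.27, 1), with no filter on low counts (-2.24, 0.199), without WT replicate 1 (-2.08, 1), WT replicate 2 (-2.41, 0.0643) or KI replicate 1 (-1.61, 0.966), and with at least 3 (a fitted -11.11, 1) or at least 1 Pvalb UMI (-0.66, 0.703). Both interaction fits gave the sums of Pvalb-gated nuclei less spread between libraries than the fit of these sums alone. The cause of either difference was not tested.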

How the results depend on the processing

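Counts of genes passing an adjusted p of 0.05 moved with the processing, and the cause was not tested. For KI against WT in Pvalb-gated nuclei (0 genes), 10 passed with no filter on low counts and 8 with the replicate block (Dcc and Elmo1, adjusted p = 0.00978 each by edgeR, Cdh8, 0.0347, and Gm32647, 0.0456, among them), and leaving out a library gave 3 to 42. DESeq2, library totals, the doublet and gate alternatives, the higher gene minimum and thinned sums all gave 0. For the difference from Sst-gated nuclei (1 gene), 0 passed with library totals, 4 with no filter, 0 with Scrublet scores above 0.25 removed, 8 with nuclei of 2 or more Slc17a7 UMIs removed, 3 without the Kcnmb2-negative nuclei, 14 with at least 1 Pvalb UMI, and 2 to 16 without a library. For the difference from other inhibitory nuclei (1 gene), 4 passed with library totals, 0 with no filter, 8 with Scrublet scores above 0.25 removed, 6 with nuclei of 2 or more Slc17a7 UMIs removed, 0 with at least 3 Pvalb UMIs, 0 with at least 1, and 0 to 8 without a library. In nuclei with 1 Pvalb UMI (4 genes), 1 passed with DESeq2, 7 with library totals, 40 with no filter, 2 with the replicate block (Malat1 and Pde10a, with Dcc and Alkal2 at 0.106), and 13 to 95 without a library. The log2 share ratio ranged from -1.35 to 0.05 without a library. Thinning before the gate gave no ratio, since 2 libraries then had 0 gated nuclei. Same-numbered libraries deviated with a correlation of -0.09, so the replicate numbers were not shown to pair mice. Depth limits KI replicate 2 most, where 3 UMIs equal 64.2 CPM.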
